A study of Bos grunniens x Bos taurus and Bos grunniens with 6 samples.

Results

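Matrix metalloproteinases (MMPs), their tissue inhibitors (TIMPs) and the glycoproteins and proteoglycans of the extracellular matrix were compared between the testis of cattle-yak and yak. All genes of the deposited table whose symbol was an MMP, TIMP1 to TIMP4, or 1 of a fixed set of matrix glycoprotein, proteoglycan, elastic fibre and matricellular symbols were taken, which gave 50 of 18918 genes. Each gene ID was kept as its own row, and FN1 was the only symbol that stood on more than 1 gene. The rule used symbols and no measured value, although it was written with earlier results of these data known.

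The cattle-yak group held 3 males (C1, C2 and C3), which were F1 offspring of a Jersey cattle sire and a Gannan yak dam. The yak group held 3 Gannan yak males (Y1, Y2 and Y3). Every animal was 4 years old, and each gave 1 RNA-seq library of testis tissue, with none pooled. F1 cattle-yak males are sterile, and the study set their testis transcriptome against that of fertile yak. The groups came from different counties, and according to the methods the yaks were euthanized whereas the cattle-yak were castrated, although the GEO labels give castration for all, so place and collection cannot be told apart from the cross.

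MMPs are zinc-dependent enzymes that are made as inactive precursors and cut collagens, proteoglycans and other matrix or cell surface proteins. TIMPs bind their active site and block them, and TIMP2 together with MMP14 also takes part in the activation of MMP2 at the cell surface. In the testis the matrix surrounds the seminiferous tubules, where peritubular myoid cells and Sertoli cells share a basement membrane, and fills the interstitium with its Leydig cells and vessels.

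Levels are given as FPKM, fragments per kilobase of gene model scaled to library depth, so that genes of different length can be compared. The values rested on 11175100 to 11834987 fragments on genes per cattle-yak library and 12991641 to 13136129 per yak library. Those 15042 genes whose FPKM averaged 0.5 or more across all libraries were tested with limma on log2 (FPKM + 1), a scale on which the change of low genes is understated. Calls required a log2 (foldchange), cattle-yak minus yak, beyond 1 in size together with an adjusted p (Benjamini-Hochberg) under 0.05. Markers of Sertoli cells were called higher in cattle-yak for 10 of 10 tested genes (median log2 change 2.20), of stromal and myoid cells for 9 of 9 (1.92) and of Leydig cells for 6 of 6 (1.98). Gdnf, 1 of these Sertoli markers, averaged 0.281 FPKM in yak and 1.82 FPKM in cattle-yak. It passed the minimum through the cattle-yak libraries alone, so a difference in it was built into its being tested. Markers of spermatids were called lower for 5 of 5 (median log2 change -7.89), and their summed level was 13.3 to 68.8 FPKM in cattle-yak against 8133 to 9917 FPKM in yak. Among all tested genes 33.4% were called higher and 20.8% lower. In bulk tissue, a shift in the number of cells of a type and a shift in RNA per cell cannot be told apart. The median log2 change of all tested genes was 0.51 and was 0.01 after median-of-ratios scaling, a scaling by the median ratio of each library to the average library.

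Most of the matrix genes were higher in cattle-yak. Of the 42 tested members, 29 were called higher (33.4% of all tested genes were), 3 were called lower (20.8% of all tested genes were) and 10 were not called. The 3 called lower were MMP13, ACAN and MMP27. The median log2 change of the tested members was 1.38. Every cattle-yak value lay above every yak value in 32 members and below in 8, and the groups overlapped in FBLN7 and Postn, whereas among all tested genes these shares were 53.9%, 30.2% and 15.9%. MMP13, MMP17 and MMP27 passed the minimum through the yak libraries alone, so a difference in them was built into their being tested. With median-of-ratios scaling 18 members were called higher (17.4% of all tested genes were) and 6 lower (27.9% of all tested genes were), with a median change of 0.85, and no member turned its direction. The other 8 members, MMP1, MMP7, MMP8, MMP9, MMP12, MMP20, TNC and the other FN1 gene, were under the minimum and are given below by their levels.

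**Figure D1:**
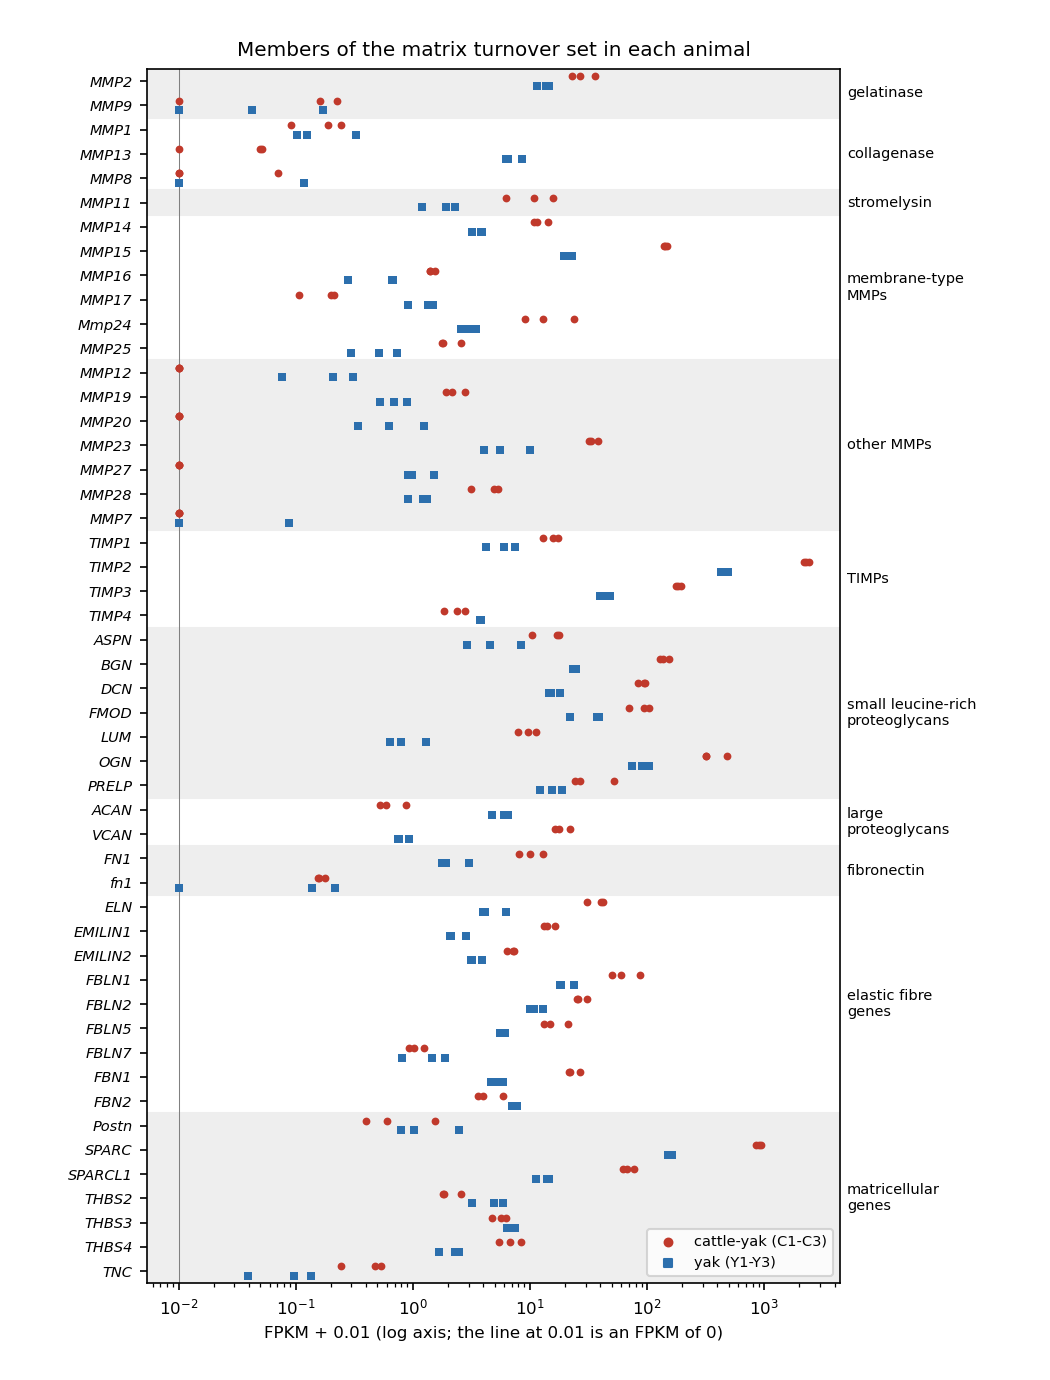
FPKM + 0.01 (log axis) of the 50 members in each cattle-yak (red circles) and yak (blue squares), grouped by role, with FPKM of 0 on the line at 0.01. TIMP2 stood highest in both groups, and MMP7, MMP12, MMP20 and MMP27 lay on the line in all 3 cattle-yak libraries.

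**Figure D2:**
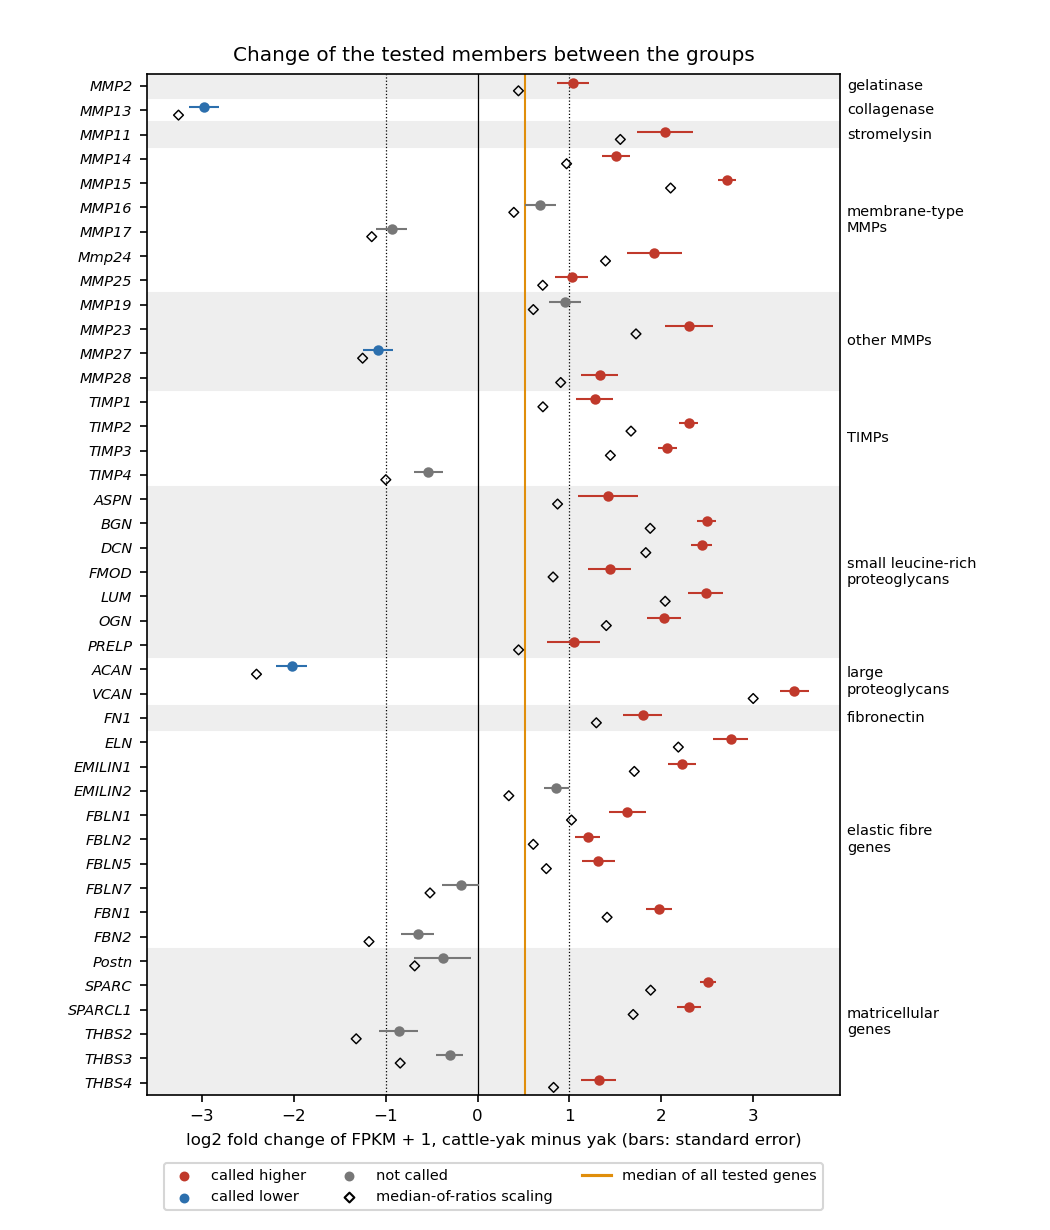
Log2 change of the 42 tested members, cattle-yak minus yak on log2 (FPKM + 1), with standard errors (n = 3 per group). Red points were called higher, blue points lower and grey points neither, open diamonds give the change with median-of-ratios scaling, dotted lines mark the threshold of 1, and the orange line is the median of all tested genes (0.51). The largest rise was that of VCAN and the largest fall that of MMP13.

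Among the MMPs that degrade collagen and its denatured form, the gelatinase MMP2 and the collagenase MMP13 went in opposite directions. MMP2, gelatinase A, was at 27.1, 36.3 and 22.8 FPKM in C1, C2 and C3 and at 13.7, 11.5 and 14.5 FPKM in Y1, Y2 and Y3. All cattle-yak values were above all yak values, and the log2 change was 1.04 ± 0.18 (SE, adjusted p = 0.00066), close to the threshold, so that the call was lost without C2 (0.86) or Y2 (0.95). The other gelatinase, MMP9, was at 0 to 0.217 FPKM over the 6 libraries and was not tested. MMP13, a collagenase best known from cartilage and bone, was at 0.0392, 0.0415 and 0 FPKM in cattle-yak and at 6.22, 6.55 and 8.65 FPKM in yak. These values correspond to 1, 1 and 0 fragments against 176, 185 and 242, a level 266-fold lower in cattle-yak (95% interval 73.3 to 2201, for counting error only). On the compressed scale its log2 change was -2.98 ± 0.16 (adjusted p = 1.2e-06), the largest fall among the members. The other collagenases, MMP1 and MMP8, stayed between 0 and 0.320 FPKM in every library and overlapped between the groups.

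MMP13 is expressed in cartilage and bone, and the proteoglycan ACAN described below in cartilage. Of the marker list for chondrocytes and bone, tissues the sample should not hold, 1 of 4 tested genes was called lower in cattle-yak and none higher, against 20.8% and 33.4% of all tested genes. The gene called was COL2A1, the cartilage collagen, at 0.356 ± 0.093 FPKM (SD, n = 3) in cattle-yak against 4.07 ± 1.08 in yak, which also passed the minimum through the yak libraries alone. IBSP, a bone protein, was at 0 in all cattle-yak libraries and in 2 of 3 yak libraries, with 0.169 FPKM in Y3. BGLAP and SPP1 overlapped between the groups and were not called. The summed level of the list, 127.1 to 146.9 FPKM in cattle-yak and 98.5 to 109.3 in yak, was mostly MATN3 (136.0 against 96.5 FPKM). MATN3 was higher in cattle-yak without overlap and was not called. The part of such cells in the fall of MMP13 and ACAN was not tested.

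MMP11, stromelysin-3, a furin-activated MMP, was at 6.25, 15.9 and 10.9 FPKM in cattle-yak and at 1.91, 1.18 and 2.30 FPKM in yak. Its groups were apart despite the wide spread in cattle-yak, and it rose by 2.04 ± 0.31 on the log2 scale (adjusted p = 0.00031).

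The membrane-type MMPs are held at the cell surface by a transmembrane segment or a glycolipid anchor. Of these, 4 of 6 were called higher, against 33.4% of all tested genes. With median-of-ratios scaling 2 of 6 were called higher and 1 lower, against 17.4% and 27.9% of all tested genes. MMP15, a transmembrane MMP, was the most abundant MMP of all, with 143.1, 147.9 and 140.9 FPKM in cattle-yak against 20.8, 19.7 and 22.9 FPKM in yak. The spread within each group was small against the 6.81-fold gap, and the log2 change was 2.71 ± 0.09 (adjusted p = 1.7e-07). MMP15 made up 54.0 to 59.0% of the summed MMP FPKM in the cattle-yak libraries and 31.9 to 34.7% in the yak libraries. Mmp24, another transmembrane MMP, was at 23.6, 9.16 and 12.9 FPKM against 2.56, 3.49 and 2.99 FPKM, with C1 far above the other two cattle-yak (log2 change 1.92 ± 0.30, adjusted p = 0.00038). MMP14, the activator of MMP2, was at 11.5, 14.2 and 10.8 FPKM against 3.19, 3.86 and 3.78 FPKM. Its log2 change of 1.51 ± 0.15 (adjusted p = 2.8e-05) was thus smaller than that of MMP15, and the MMP14 to MMP15 ratio was 0.084 ± 0.011 (SD, n = 3) in cattle-yak against 0.172 ± 0.022 in yak.

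The remaining membrane-type members were low. MMP25, with a glycolipid anchor, was at 1.78, 2.56 and 1.82 FPKM against 0.286, 0.501 and 0.722 FPKM. Its change of 1.02 ± 0.18 (adjusted p = 0.00088) lost the call without C2 (0.91) or Y1 (0.92). MMP16, a transmembrane member, was at 1.53, 1.41 and 1.39 FPKM against 0.659, 0.270 and 0.666 FPKM, and its change of 0.68 (adjusted p = 0.0051) was under the fold threshold, whereas it was called at a pseudocount of 0.1 (1.36) and with voom on recovered fragments (1.52). MMP17, the other member with a glycolipid anchor, ran the other way, with 0.190, 0.201 and 0.0971 FPKM in cattle-yak and 0.900, 1.33 and 1.47 FPKM in yak, or 4, 4 and 2 fragments against 21, 31 and 34. The groups were apart but the change of -0.93 (adjusted p = 0.00084) was not called at a pseudocount of 1, whereas it was -2.34 and called at a pseudocount of 0.1.

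Of the other MMPs, 2 of 4 tested were called higher and MMP27, which passed the minimum through yak alone, lower. Over all tested genes these shares were 33.4% and 20.8%. MMP23, an MMP without the hemopexin domain, was the most abundant of them, at 33.2, 38.3 and 31.7 FPKM in cattle-yak and 10.1, 4.07 and 5.54 FPKM in yak. Y1 was the highest yak and still well under every cattle-yak, and MMP23 rose by 2.30 ± 0.26 (adjusted p = 6.1e-05). MMP28, epilysin, was at 4.98, 5.34 and 3.13 FPKM against 1.22, 1.32 and 0.907 FPKM (log2 change 1.33 ± 0.20, adjusted p = 0.00032). MMP19 was at 2.78, 2.15 and 1.92 FPKM against 0.677, 0.882 and 0.513 FPKM, and with a change of 0.95 (adjusted p = 0.00091) it was just short of the call. It passed without C3 or Y2 (1.03 in both cases), with TPM scaling (1.17), at a pseudocount of 0.1 (1.60) and with voom (1.72).

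MMP27, an MMP retained in the cell, had no fragment in any cattle-yak library and 25, 27 and 41 fragments in yak, or 0.908, 0.983 and 1.51 FPKM. Set against a floor of 3 fragments per library, it was at least 8.84-fold lower in cattle-yak. Its fitted change was -1.08 ± 0.17 (adjusted p = 0.00036), a call lost without Y3 (-0.96). MMP20, enamelysin, the MMP of tooth enamel, likewise had 0 fragments in cattle-yak and 34, 17 and 9 in yak, which is at least 5.68-fold lower against the same floor. MMP12, macrophage elastase, had 0 fragments in cattle-yak and 6, 9 and 2 in yak. Its yak mean was 1.61 times the floor, but Y3 alone was under the floor. MMP7, matrilysin, was at 0 in all cattle-yak and in 2 of 3 yak libraries, and at 0.0776 FPKM in Y1. Except for MMP27 these genes were under the minimum and were not tested.

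The TIMPs were the most abundant class of the set. TIMP2 was at 2200.4, 2398 and 2297 FPKM in cattle-yak and 483.6, 427.8 and 491.2 FPKM in yak, which was the 9th to 13th highest gene of each cattle-yak library and the 128th to 175th of each yak library. Animals of the same group lay close together, and TIMP2 rose by 2.30 ± 0.10 (adjusted p = 4.2e-07). TIMP3, the inhibitor that binds to the matrix, was at 178.0, 182.9 and 196.9 FPKM against 43.5, 39.5 and 48.3 FPKM (log2 change 2.07 ± 0.10, adjusted p = 7.3e-07). TIMP1, the soluble inhibitor, was at 17.5, 13.0 and 15.9 FPKM against 6.03, 7.41 and 4.20 FPKM, and its rise of 1.28 ± 0.20 (adjusted p = 0.0004) was the smallest of the 3 calls. TIMP4 was the exception, with 2.80, 1.83 and 2.38 FPKM in cattle-yak under 3.82, 3.83 and 3.73 FPKM in yak. The groups did not overlap, but the change of -0.54 ± 0.16 (adjusted p = 0.013) was under the fold threshold. The TIMP2 to TIMP4 ratio was thus 1023 ± 267.6 in cattle-yak and 123.3 ± 10.3 in yak.

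The ratio of the summed transcript levels of inhibitors and proteases depended on TIMP2. Summed FPKM of the TIMPs were 9.79 ± 0.645 times those of the MMPs in cattle-yak, against 8.28 ± 0.134 times in yak (SD, n = 3), with no overlap and an exact permutation p of 0.1, the smallest that 3 against 3 animals allow. TIMP2 supplied 91.4 to 92.4% of the TIMP FPKM in cattle-yak and 89.4 to 90.1% in yak. Without it the ratio was 0.799 ± 0.092 in cattle-yak and 0.851 ± 0.040 in yak, so the direction turned and the groups overlapped (exact permutation p = 0.5). Leaving TIMP2 out was chosen after its values were seen. Against single proteases TIMP2 also differed in direction, since the TIMP2 to MMP2 ratio was 82.8 ± 17.4 in cattle-yak and 35.4 ± 1.57 in yak, while the TIMP2 to MMP15 ratio was 16.0 ± 0.513 and 22.1 ± 0.986.

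The small leucine-rich proteoglycans bind collagen fibrils and growth factors, and 7 of 7 were called higher, against 33.4% of all tested genes. With median-of-ratios scaling 4 of 7 were called higher, against 17.4% of all tested genes. OGN, osteoglycin, was the most abundant, with 321.3, 479.6 and 318.7 FPKM in cattle-yak and 104.5, 74.9 and 90.7 FPKM in yak (log2 change 2.02 ± 0.19, adjusted p = 1.7e-05). BGN, biglycan, was at 129.6, 155.8 and 136.0 FPKM against 23.8, 23.4 and 25.0 FPKM. Its close relative DCN, decorin, which binds collagen fibrils and TGF-beta, was at 83.5, 94.8 and 95.8 FPKM against 14.7, 18.3 and 15.3 FPKM. The changes of BGN (2.49 ± 0.10, adjusted p = 3.3e-07) and DCN (2.44 ± 0.12, adjusted p = 6e-07) were nearly equal, and the BGN to DCN ratio was 1.54 ± 0.113 in cattle-yak and 1.51 ± 0.201 in yak (exact permutation p = 0.8).

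LUM, lumican, had the lowest level of the class in yak and was at 9.68, 11.2 and 7.88 FPKM in cattle-yak and 0.779, 1.30 and 0.630 FPKM in yak, a 10.6-fold gap in mean FPKM (log2 change 2.48 ± 0.19, adjusted p = 6.6e-06). FMOD, fibromodulin, a regulator of collagen fibril growth, was at 69.7, 103.5 and 94.8 FPKM against 39.1, 37.7 and 21.9 FPKM (log2 change 1.44 ± 0.24, adjusted p = 0.00053). In yak the mean of FMOD (32.9 ± 9.53 FPKM) was above those of BGN and DCN, although Y3 had less FMOD than BGN, whereas in cattle-yak its mean of 89.3 ± 17.5 FPKM was under that of BGN (140.5 ± 13.7) and within the spread of DCN (91.4 ± 6.84). ASPN, asporin, was at 17.8, 10.5 and 17.0 FPKM against 8.41, 2.88 and 4.56 FPKM (log2 change 1.42 ± 0.33, adjusted p = 0.0037). PRELP, which anchors basement membranes to the matrix, was at 52.7, 26.8 and 24.2 FPKM against 12.2, 15.4 and 18.7 FPKM. C1 was far above the other cattle-yak, and the change of 1.05 ± 0.29 (adjusted p = 0.0089) was not called without C1 (0.70) or without Y1 (0.90).

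The large chondroitin sulfate proteoglycans VCAN and ACAN, both of which bind hyaluronan, changed in opposite directions. VCAN, versican, was at 17.8, 22.1 and 16.4 FPKM in cattle-yak and at 0.917, 0.733 and 0.752 FPKM in yak. The cattle-yak level was 23.4 times that of yak, and the log2 change of 3.45 ± 0.15 (adjusted p = 4.6e-07) was the 21st largest rise of the 15042 tested genes. ACAN, aggrecan, the main proteoglycan of cartilage, was at 0.871, 0.587 and 0.515 FPKM in cattle-yak and at 6.46, 6.02 and 4.78 FPKM in yak. It was 8.75 times higher in yak, with no overlap, and the log2 change was -2.02 ± 0.17 (adjusted p = 9.8e-06). ACAN was the more abundant of the pair in all yak libraries and VCAN in all cattle-yak libraries, with a VCAN to ACAN ratio of 0.140 ± 0.018 and 30.0 ± 8.73 (SD, n = 3).

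Fibronectin, FN1, which links integrins to the matrix, was at 9.93, 8.11 and 12.8 FPKM in cattle-yak and 3.03, 1.77 and 1.93 FPKM in yak on its main gene (ENSBGRG00000002811). It rose by 1.80 ± 0.21 (adjusted p = 7.3e-05). The other gene with this symbol (ENSBGRG00000005290) held 6, 5 and 5 fragments in cattle-yak and 5, 0 and 8 in yak. How reads of near-identical stretches were shared between the genes is uncertain.

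Elastic fibres consist of an elastin core on a scaffold of fibrillin microfibrils, and 6 of 9 of their genes were called higher and none lower. Of all tested genes 33.4% and 20.8% were. With median-of-ratios scaling 4 of the 9 were called higher and 1 lower, against 17.4% and 27.9% of all tested genes. ELN, elastin, was at 30.8, 42.2 and 40.4 FPKM in cattle-yak against 4.00, 4.13 and 6.23 FPKM in yak, the largest rise of the class (log2 change 2.75 ± 0.19, adjusted p = 3.3e-06). EMILIN1, which sits at the boundary of elastin and microfibrils, was at 14.1, 16.3 and 13.3 FPKM against 2.86, 2.06 and 2.10 FPKM (log2 change 2.22 ± 0.15, adjusted p = 3.7e-06). Its relative EMILIN2 was at 7.26, 6.42 and 7.24 FPKM against 3.88, 3.22 and 3.11 FPKM, and its change of 0.86 ± 0.14 (adjusted p = 0.00053) was not called.

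The fibrillins differed from each other. FBN1, fibrillin-1, was at 21.4, 26.8 and 22.2 FPKM in cattle-yak and 5.87, 4.66 and 5.11 FPKM in yak (log2 change 1.98 ± 0.14, adjusted p = 4e-06). FBN2, fibrillin-2, the form typical of embryonic microfibrils, was at 3.95, 5.94 and 3.57 FPKM against 7.59, 7.83 and 7.02 FPKM. All cattle-yak were below all yak, the change of -0.65 ± 0.18 (adjusted p = 0.0095) was not called, and with median-of-ratios scaling it was -1.18 and called. The FBN1 to FBN2 ratio was 5.39 ± 0.857 in cattle-yak and 0.698 ± 0.092 in yak, so FBN2 was the more abundant fibrillin in yak and FBN1 in cattle-yak. Elastin also rose more than FBN1, with an ELN to FBN1 ratio of 1.61 ± 0.194 against 0.929 ± 0.271.

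Of the fibulins, which tie elastin and basement membrane proteins together, FBLN1 was the most abundant at 60.1, 87.6 and 50.3 FPKM in cattle-yak and 18.2, 24.0 and 18.5 FPKM in yak (log2 change 1.63 ± 0.21, adjusted p = 0.00011). FBLN2 was at 30.5, 25.7 and 25.2 FPKM against 13.1, 10.8 and 9.94 FPKM (log2 change 1.20 ± 0.14, adjusted p = 6.3e-05). FBLN5, needed for elastin assembly, was at 14.8, 21.1 and 13.3 FPKM against 5.85, 6.18 and 5.59 FPKM (log2 change 1.31 ± 0.18, adjusted p = 0.00016). The groups were apart in all of these, whereas FBLN7 overlapped, at 0.925, 1.02 and 1.25 FPKM against 1.46, 0.806 and 1.87 FPKM (log2 change -0.18 ± 0.20, adjusted p = 0.42).

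Matricellular proteins modulate the contact of cells with the matrix rather than build it, and 3 of 6 tested were called higher and none lower, against 33.4% and 20.8% of all tested genes. SPARC, osteonectin, a collagen-binding protein, was at 937.2, 899.9 and 858.1 FPKM in cattle-yak and 156.2, 149.9 and 164.8 FPKM in yak. It was the 46th to 60th highest gene of the cattle-yak libraries and the 714th to 782nd of the yak libraries, with a log2 change of 2.51 ± 0.09 (adjusted p = 1.8e-07). Its relative SPARCL1, hevin, was at 67.6, 77.1 and 62.0 FPKM against 13.9, 11.3 and 14.5 FPKM (log2 change 2.30 ± 0.13, adjusted p = 1.4e-06). The SPARC to SPARCL1 ratio was 13.1 ± 1.26 in cattle-yak and 11.9 ± 1.13 in yak, so the groups overlapped (exact permutation p = 0.2).

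Thrombospondins, secreted glycoproteins that bind calcium and cell surface receptors, did not move together. THBS4 was at 5.45, 8.44 and 6.70 FPKM in cattle-yak and 1.65, 2.48 and 2.28 FPKM in yak (log2 change 1.32 ± 0.19, adjusted p = 0.00024). THBS2, an inhibitor of vessel growth, was at 1.85, 2.56 and 1.80 FPKM against 5.85, 3.20 and 4.89 FPKM. Its change of -0.86 ± 0.21 (adjusted p = 0.0054) was not called, but was -1.06 and called without Y2, and -1.32 and called with median-of-ratios scaling. THBS3 was at 5.70, 6.30 and 4.75 FPKM against 6.38, 7.50 and 7.40 FPKM (log2 change -0.30 ± 0.15, adjusted p = 0.087). THBS4 was the lowest of these genes in every yak library, and the THBS4 to THBS2 ratio was 3.32 ± 0.395 in cattle-yak and 0.508 ± 0.249 in yak.

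Postn, periostin, varied more between animals than between groups, at 1.55, 0.594 and 0.390 FPKM in cattle-yak and 0.781, 2.46 and 1.02 FPKM in yak (log2 change -0.38 ± 0.31, adjusted p = 0.28). TNC, tenascin-C, was under the minimum, with 22, 41 and 48 fragments in cattle-yak and 9, 13 and 3 in yak. THBS1 and TNXB were not analysed here.

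**Figure D3:**
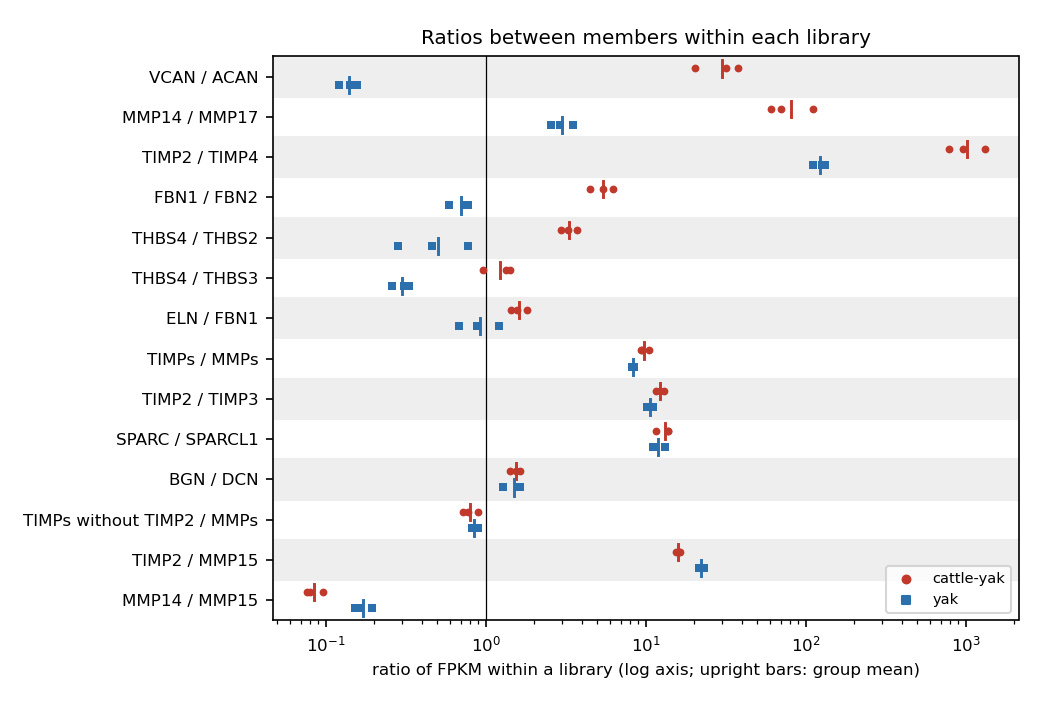
Ratio of the FPKM of pairs of members or classes within each library (log axis), cattle-yak as red circles and yak as blue squares, with upright bars at the group mean (n = 3). The pairs were chosen after their values were seen. The VCAN to ACAN ratio lay on opposite sides of 1 in the groups (30.0 against 0.140), while the BGN to DCN ratio overlapped (1.54 against 1.51).

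Summed over the set, the members took 4572 to 5011 FPKM in cattle-yak and 958.4 to 1064 FPKM in yak, or 0.797 ± 0.057% and 0.170 ± 0.0094% of each library's summed FPKM (SD, n = 3). TIMP2 alone was 47.9 to 50.1% of the members' FPKM in cattle-yak and 44.6 to 46.6% in yak. TIMP2, SPARC, OGN, TIMP3, MMP15 and BGN were among the 1000 highest genes of every cattle-yak library, and TIMP2 and SPARC of every yak library. By class, the summed level rose 5.83-fold for the membrane-type MMPs, 5.30-fold for the matricellular genes, 4.80-fold for the TIMPs, 4.08-fold for the small leucine-rich proteoglycans and 3.19-fold for the elastic fibre genes. The collagenases were the only class with a lower sum in cattle-yak (0.211 ± 0.086 against 7.35 ± 1.20 FPKM). Each class was apart between the groups, with an exact permutation p of 0.1, the smallest possible. These sums rest on few genes, since SPARC made up 90.4 to 91.9% of the matricellular sum in cattle-yak, and without MMP13 the log2 difference of the collagenases was -0.0355.

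**Figure D4:**
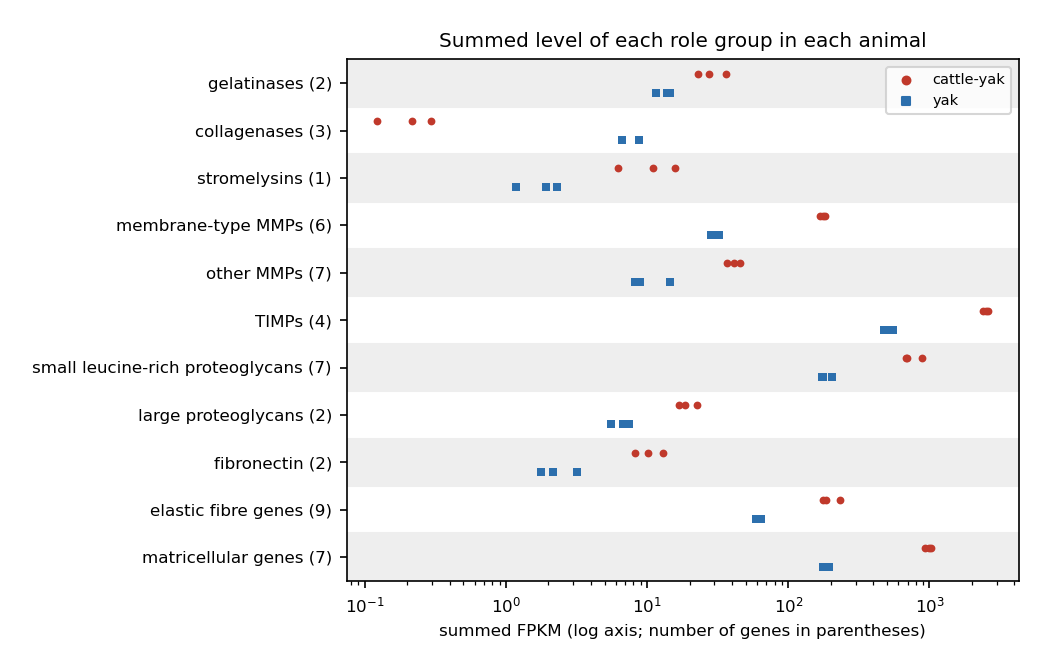
Summed FPKM of each role class in each animal (log axis), cattle-yak as red circles and yak as blue squares, with the number of genes in parentheses. Only the collagenases lay lower in cattle-yak, at 0.122 to 0.294 FPKM against 6.65 to 8.74 FPKM.

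As markers of somatic testis cells rose with the matrix genes, the change of each member was also set against the median marker level of the Sertoli and stromal lists. These medians were 2.32 and 1.87 higher in cattle-yak on the log2 scale. The summed level was 1578 to 1732 FPKM in cattle-yak and 399.0 to 411.5 FPKM in yak for the Sertoli list, and 643.2 to 869.9 FPKM and 136.9 to 164.4 FPKM for the stromal list. No marker of these lists was at 0, and the part of these cells in the change of the members was not tested. After subtraction of the Sertoli level, 1 member was called higher (0.186% of all tested genes were) and 19 were called lower (76.6% of all tested genes were). Relative to the stromal level, 1 member was called higher (0.625% of all tested genes were) and 12 were called lower (62.1% of all tested genes were). The member called higher in both was VCAN, by 1.13 and 1.58, and relative to the Sertoli level ELN (0.44), MMP15 (0.40), SPARC (0.19), BGN (0.18), LUM (0.16) and DCN (0.12) were above 0 without a call. TIMP2, MMP23 and SPARCL1 changed like the Sertoli level, with differences of -0.02 each. Each library was shifted by 1 value for all genes, so the order of the changes was the same as without the shift. Low genes, whose change the log2 (FPKM + 1) scale understates, were moved towards a lower call. MMP25 had 4.08 times the yak FPKM in cattle-yak and was called lower relative to the Sertoli level (-1.29). TNP2, a spermatid marker, had an adjusted p of 2.4e-227 in the stromal limma fit, too small to measure spread between 3 animals per group.

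**Figure D5:**
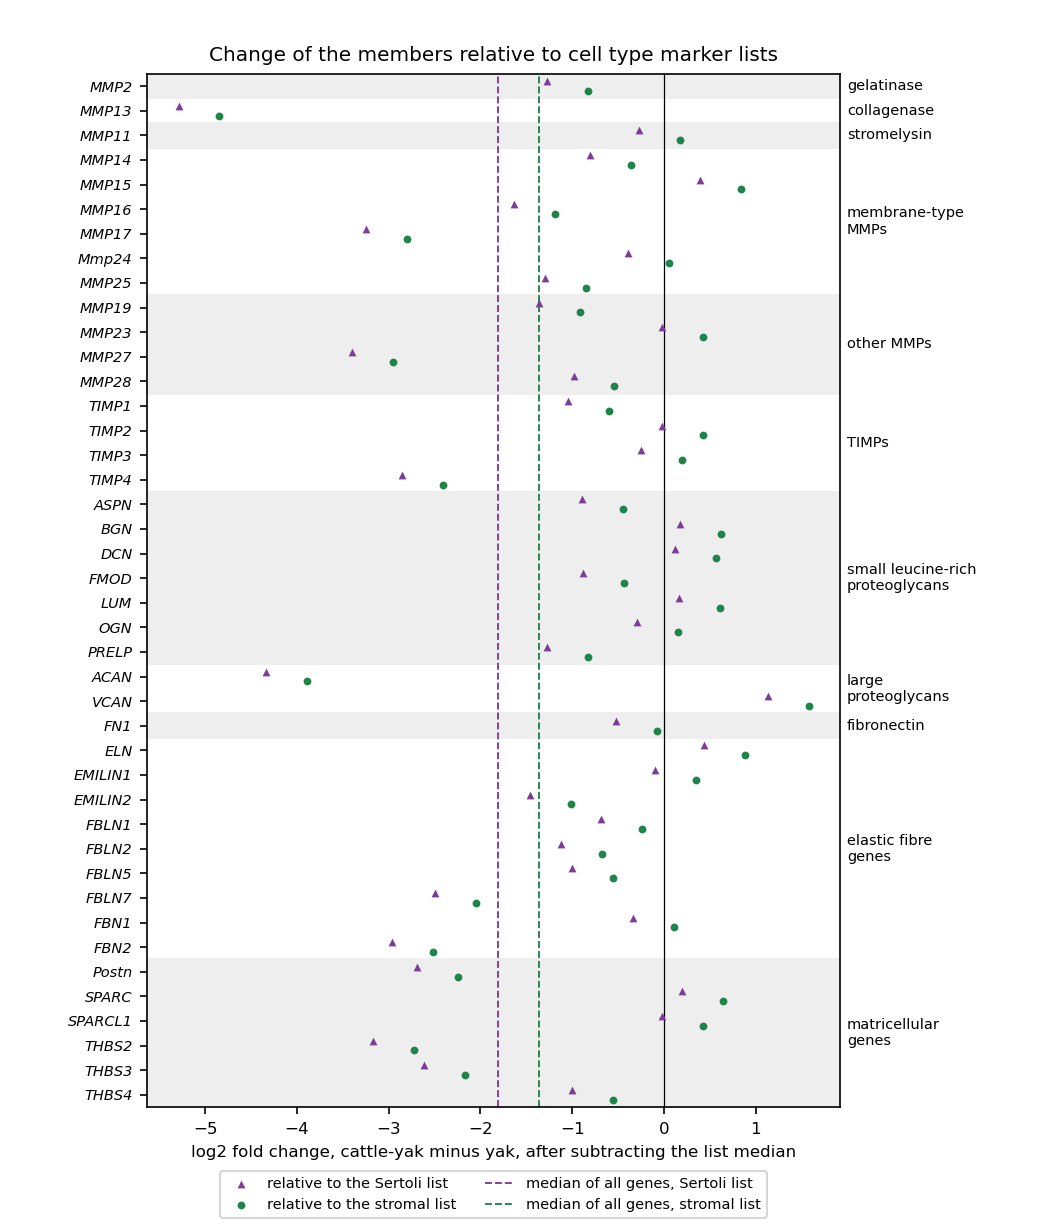
Log2 change of the 42 tested members, cattle-yak minus yak, after subtraction of the median level of a marker list in each library. Purple triangles are for the Sertoli list and green circles for the stromal list, with dashed lines at the median of all tested genes (-1.80 and -1.36). VCAN lay furthest above 0 (1.13 and 1.58) and MMP13 furthest below.

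Other genes of the same pathways were counted from lists of activators and inhibitors, of elastic fibre assembly and of receptors. Of 11 tested protease activators and other inhibitors, 8 were called higher and none lower, with a median change of 1.36. Over all tested genes 33.4% were called higher and 20.8% lower, with a median change of 0.51. PLAT, the tissue plasminogen activator, had the largest rise, from 5.31 ± 1.19 FPKM in yak to 47.4 ± 4.52 in cattle-yak (log2 change 2.95, adjusted p = 9.9e-07). PLAU, the urokinase that serves the same reaction, overlapped between the groups, with 1.54 ± 0.514 FPKM in cattle-yak and 2.70 ± 1.07 in yak (log2 change -0.52, adjusted p = 0.074). BSG, basigin, an inducer of MMP expression, was the most abundant of the list, at 464.1 ± 6.20 FPKM against 179.9 ± 11.9 (log2 change 1.36, adjusted p = 2.6e-06).

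Of 13 tested genes of elastic fibre assembly, 7 were called higher and 2 lower, beside the same 33.4% and 20.8% of all tested genes. LTBP4, which guides elastin deposition, was the most abundant in cattle-yak and rose most, from 12.2 ± 0.658 to 82.6 ± 18.4 FPKM (log2 change 2.65, adjusted p = 1.6e-06). LOXL1 and LOXL2, lysyl oxidases that crosslink elastin and collagen, were those called lower. LOXL1 was the most abundant gene of this list in yak, at 58.4, 68.5 and 56.4 FPKM, and was at 8.90, 10.2 and 9.47 FPKM in cattle-yak. This member of the family was thus lower (log2 change -2.56, adjusted p = 4.7e-07) in the group in which ELN was higher. LOXL2 was at 2.10 ± 0.534 against 5.27 ± 0.380 FPKM (log2 change -1.03, adjusted p = 0.00058), and the call was lost without C3 or Y2. LOX itself rose, from 1.63 ± 0.271 to 4.77 ± 0.878 FPKM (log2 change 1.13, adjusted p = 0.00036). LOXL3 (1.12 FPKM in yak, 2.41 in cattle-yak, log2 change 0.69) and LOXL4 (0.564 and 1.37 FPKM, 0.59) were also higher without overlap. They were not called, but were at a pseudocount of 0.1 (1.07 and 1.13).

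Of 14 tested receptors, 8 were called higher and 1 lower, where 33.4% and 20.8% of all tested genes were. SDC4, syndecan-4, a fibronectin coreceptor, rose most and was at 93.9 ± 11.9 FPKM in cattle-yak and 13.6 ± 2.20 in yak (log2 change 2.70, adjusted p = 1e-06). SDC2 was at the same level in cattle-yak (93.9 ± 2.99 FPKM) but started from 71.5 ± 15.0 FPKM in yak and was not called (log2 change 0.41, adjusted p = 0.036). ITGB3, the beta-3 integrin, was called lower, at 0.794 ± 0.448 against 2.77 ± 0.539 FPKM (log2 change -1.09, adjusted p = 0.0019), and lost the call without C1 or Y1. Its partner ITGAV rose from 7.13 ± 1.11 to 38.4 ± 3.07 FPKM (log2 change 2.28). With median-of-ratios scaling, 5 of 11 activators and inhibitors, 2 of 13 assembly genes and 5 of 14 receptors were called higher, when 17.4% of all tested genes were. Called lower were 0, 2 and 2 of these lists, when 27.9% of all tested genes were.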

How the data were processed

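RNA-seq libraries of testis from 3 cattle-yak and 3 yak were compared. Per the methods, the authors used Trimmomatic for trimming, HISAT2 for mapping of both groups to the yak assembly LU_Bosgru_v3.0, Cufflinks for FPKM and HTSeq for read counts. Tool versions are not given in the sources used here. The deposited FPKM are per gene length and library depth, unscaled between libraries. They are whole fragments divided by length and depth, so which tool gave them is uncertain. Whole fragments, within a tolerance of 0.03 fragments, were recovered from their ratios for 17973 genes (945 had 1 value above 0). By the paper's mapping results, a smaller share of reads mapped to the yak assembly in every cattle-yak library than in any yak library. The part of this in the values of the members was not tested.

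Genes averaging 0.5 FPKM or more were fitted in limma 3.58.1 (R 4.3.3) on log2 (FPKM + 1), with a variance trend, two-sided, over all 6 libraries. Calls were made at a Benjamini-Hochberg adjusted p of 0.05 over all tested genes and a log2 change of 1. Single values were compared by two-sided exact permutation, where 10 splits are possible and p cannot go below 0.1. The recovery and the fit were tested on simulated data. Python 3.11.15, numpy 2.4.6, pandas 2.3.3 and matplotlib 3.10.9 served for sums, ratios and figures.

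The member rule uses symbols only, but members and lists were chosen with earlier results of these data known. Full values are given for members with the highest level, the extreme changes or a changed call in each class, and for the extreme and most abundant genes of a list. Chromosome positions and sequences were not used here.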

Additional observations from a re-analysis of the deposited data

How the results depend on the processing

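The members called higher numbered 26 to 32 under other pseudocounts, filters, TPM scaling, priors and voom on recovered fragments, and 18 with median-of-ratios scaling. Over all tested genes, the counts called higher were 5924 of 15042 at a pseudocount of 0.1, 5966 with voom and 5517 with TPM scaling. They were 3908 of 10782 at a mean FPKM of at least 5 and 2624 of 15042 with median-of-ratios scaling. That scaling ended the calls of 11 members, MMP2, MMP14, MMP25, MMP28, TIMP1, ASPN, FMOD, PRELP, FBLN2, FBLN5 and THBS4. The members called lower numbered 5 at a pseudocount of 0.1 and with voom, 0 at a mean FPKM of at least 5 (fewer genes tested), 6 with median-of-ratios scaling and 7 with no fold threshold. Over all 15042 tested genes, 3414 were called lower at a pseudocount of 0.1, 3416 with voom and 4193 with median-of-ratios scaling. At a mean of at least 5 it was 2443 of 10782. The count over all genes with no fold threshold was not taken. The median change of the tested members was 1.66 at a pseudocount of 0.1, 1.98 at a mean of at least 5, 0.85 with median-of-ratios scaling and 1.70 with voom. Over all tested genes these medians were 0.62, 0.52, 0.01 and 0.63. Of the 42 tested members, 24 kept their call under every alternative in which they were tested, other than the fold threshold. MMP13 and ACAN were among the members not tested at a mean FPKM of at least 5. None of the 42 turned its direction.

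With median-of-ratios scaling the lists of activators, elastic fibre assembly and receptors had 5, 2 and 5 genes called higher. These were of 11, 13 and 14 tested genes, against 17.4% of all tested genes. Genes called lower were 1 for assembly and 0 for receptors at a mean of at least 5, and 2 for receptors at a pseudocount of 0.1, with median-of-ratios scaling, with voom and with no fold threshold. The counts of all tested genes called lower in these settings are those given above. Relative to the stromal level 2 members were called higher at a pseudocount of 0.1, against 223 of all 15042 tested genes. Median-of-ratios scaling gave log2 differences of summed FPKM of 0.47 for gelatinases, -5.83 for collagenases, 1.94 for stromelysins, 1.92 for membrane-type and 1.39 for other MMPs, 1.64 for TIMPs, 1.39 for small leucine-rich and 0.94 for large proteoglycans, 1.54 for fibronectin, 1.04 for elastic fibre and 1.78 for matricellular genes. Without the most abundant gene they were -0.0355 for collagenases, 1.79 for membrane-type and 0.77 for other MMPs, 1.93 for TIMPs, -3.15 for large proteoglycans (reversed, as ACAN alone is left) and 1.56 for matricellular genes. The log2 difference of the TIMP to MMP ratio was 0.24, 0.77 from means of log2 (FPKM + 1) and -0.10 without TIMP2, the last chosen after seeing the data. For other differences the cause was not tested.

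Leaving out each animal in turn gave 27 to 30 members called higher and 2 to 4 lower. Over all 15042 tested genes it gave 4904 to 5133 called higher and 3076 to 3192 lower. It gave 1 to 2 assembly genes called lower (1 without C3 or Y2), 0 to 2 receptors called lower (0 without C1 or Y1, 2 without C2) and 1 to 3 members called higher relative to the stromal level (3 without Y3). Of all tested genes 71 to 156 were called higher relative to the stromal level (156 without Y3). No paired analysis was possible because the groups are separate animals whose titles in GEO share no number, and the numbers in C1 to C3 and Y1 to Y3 only name them. With 3 animals per group, no single value could pass an exact test. Genes with few fragments, such as MMP17 and MMP27, rest on counting error as well.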

Other observations

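Several of the MMPs that fell or were at 0 in cattle-yak share a group. MMP1, MMP7, MMP8, MMP12, MMP13, MMP20 and MMP27 belong, in mammals, to a cluster of neighbouring MMP genes. This grouping was made after the values were seen, and positions in the yak genome were not used here. MMP7, MMP12, MMP20 and MMP27 were at 0 in 3 of 3 cattle-yak libraries, and the share of all genes at 0 there was not counted. MMP13 had 2 fragments in all cattle-yak libraries together against 603 in yak. MMP1, MMP7 (above 0 in Y1 alone) and MMP8 overlapped between the groups. Only MMP13 and MMP27 of this group were tested, and both passed the minimum through the yak libraries alone.

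By the GO terms deposited with the table, 43 of the 50 members were annotated, and 28 of them carried the term extracellular matrix. Metalloendopeptidase activity stood on 13 members, calcium ion binding on 15 and collagen binding on 7. Among the 7 members that bind collagen by annotation, ASPN, DCN, LUM, SPARC, SPARCL1 and THBS4 were called higher in cattle-yak, and MMP13 was called lower. The shares of all tested genes called higher and lower were 33.4% and 20.8%.

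Genes of other cell types varied within their lists. The counts that follow stand beside 33.4% of all tested genes called higher and 20.8% called lower. Of 7 tested endothelial markers 4 were called higher and VWF lower (3.70 ± 1.11 FPKM in cattle-yak, 15.6 ± 0.478 in yak). With median-of-ratios scaling no endothelial marker was called higher. Of 6 tested macrophage markers 3 were called higher, while AIF1 (3.55 ± 0.748 against 61.3 ± 7.20 FPKM) and CD14 (8.93 ± 1.18 against 27.3 ± 1.81 FPKM) were called lower. Of 6 tested spermatocyte markers 1 was called higher and 1 lower, and HBA, a blood marker, was at 0.141 to 0.667 FPKM over the 6 libraries. Their part in the values of the matrix genes was not tested.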
